A study of Homo sapiens with 12 samples.

Results

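A549, an established line of human lung adenocarcinoma cells, was grown either flat on plastic or inside Matrigel, and the change in its RNA between these cultures is described here across genes. The members are the 6 A549 libraries among the 12 libraries of the series, 3 from flat culture (2D) and 3 from Matrigel (3D), chosen by their titles. Both cultures had the same medium, DMEM with 10% fetal bovine serum, and neither received a treatment. RNA was taken with TRIZOL when 2D cells covered about 80% of the dish and, from Matrigel, on day 4, and ribosomal RNA was depleted before stranded libraries were made. The stated question of the series is which genes the extracellular matrix regulates in cancer cells. A549 is a single cell line. Whether libraries of a group stem from independently grown cultures is not in the labels, and the p-values below therefore reflect the scatter among these libraries alone, which could be technical.

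Matrigel is a gel of basement membrane proteins, mainly laminin, type IV collagen, nidogen and heparan sulfate proteoglycan, extracted from a mouse tumour. Epithelial cells bind such a gel through integrins and often form rounded, polarised clusters in it, while cells on plastic spread out, pull on their substrate through actin stress fibres and keep the mechanically regulated co-activators YAP and TAZ in the nucleus. A549 carries an inactivating change in KEAP1, the adaptor that marks the transcription factor NRF2 for breakdown, so that genes of oxidant defence are highly expressed in this line.

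The line expressed general epithelial genes in both cultures, while markers of alveolar type 2 lung cells were near 0. All 5 epithelial markers (KRT8, KRT18, KRT19, EPCAM and CDH1) averaged at least 1 CPM (counts scaled to the library's size) in 2D and in 3D, and their sum went from 3600 to 3810 CPM in 2D to 10500 to 12600 CPM in 3D. None of 7 alveolar type 2 markers, the surfactant proteins among them, reached 1 CPM on average in either culture, with sums of 0.74 to 1.17 and 0.991 to 2.07 CPM. Leukocyte markers summed to 8.77 to 10.4 CPM in 2D and 33.7 to 50.5 CPM in 3D, with CD14 and CD68 the highest in 3D and CD3E and MS4A1 at 0 counts in every library. Fibroblast markers summed to 16.7 to 22.1 and 12.9 to 13.9 CPM, with DCN and DPT at 0.

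Each library was counted as 1 sample. No pair of libraries of a culture agreed within counting noise, which does not show that they came from separate cultures. The libraries also differed in quality between cultures. Total expected counts ran from 16453891 to 17717695 in 2D and from 5609327 to 28171901 in 3D, with replicate 2 the smallest and replicate 3 the largest. Mean fragment length was 176.5 to 187.3 bases in 2D and 133.7 to 141 in 3D, and ribosomal RNA took 0.311% to 0.483% of counts in 2D and 3.53% to 16.5% in 3D, with replicate 1 the highest. For both measures the cultures did not overlap (two-sided exact permutation test p = 0.1, the smallest that 3 against 3 libraries allow). Their part in the results below was not tested. Values below are TMM-normalised CPM, given in the order replicate 1, 2 and 3, means in CPM are given ± SD (n = 3), and a log2 fold change is 3D minus 2D ± its standard error (SE). A gene rose or fell where edgeR's quasi-likelihood test gave a Benjamini-Hochberg adjusted p under 0.05.

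Most genes of A549 differed between the cultures. Of 14111 genes tested, 8760 passed (62.1%), 4640 higher in 3D (32.9%) and 4120 lower (29.2%), so 53% of the calls were rises. On the deposited TPM values, tested with limma as log2(TPM + 1), 18% of 9228 calls were rises, and the median gene lay at -0.51 on that scale against 0.03 in CPM. With each library centred on its median gene, an alternative chosen after seeing the data, rises made up 50.3% of 7723 calls. Where the counts of a gene list differ much on log2(TPM + 1), called the TPM scale below, both are given. Counts on that scale are not centred and so include the shift of the median gene. On centred values 8 of 16 tight junction genes rose and 2 fell, and 11 of 20 hypoxia-induced genes rose and 3 fell. Of class I presentation genes 11 of 17 rose and 1 fell. Integrin subunits, in contrast, had 3 rises and 6 falls of 14, and ribosomal protein genes 8 rises and 12 falls of 57. Calls with a fitted change of at least 2-fold numbered 3651 (25.9%), 2316 higher (16.4%) and 1335 lower (9.46%). A test against a 2-fold change was passed by 2184 genes (15.5%), 1501 higher (10.6%) and 683 lower (4.84%). The 2D and 3D libraries did not overlap in 9654 genes (68.4%), with all 3D libraries higher in 5000 (35.4%) and lower in 4654 (33%).

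The 3D libraries varied far more among themselves than the 2D libraries. Over 10950 genes with a mean of at least 5 CPM, the median range over 3 libraries, taken as the highest minus the lowest log2(CPM + 0.5), was 0.373 in 3D and 0.118 in 2D. The 3D libraries lay more than 2-fold apart in 406 genes (3.71%) and the 2D libraries in 11. Between single pairs of 3D libraries, 191 genes were that far apart for replicates 1 and 2, 89 for 1 and 3 and 243 for 2 and 3, against 4 to 7 between pairs of 2D libraries. Among the 406 genes, the library farthest from the rest was replicate 2 in 186, replicate 3 in 139 and replicate 1 in 81. Of 6979 genes at this level that passed the test, 927 (13.3%) changed by less than their own 3D range.

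**Figure D1:**
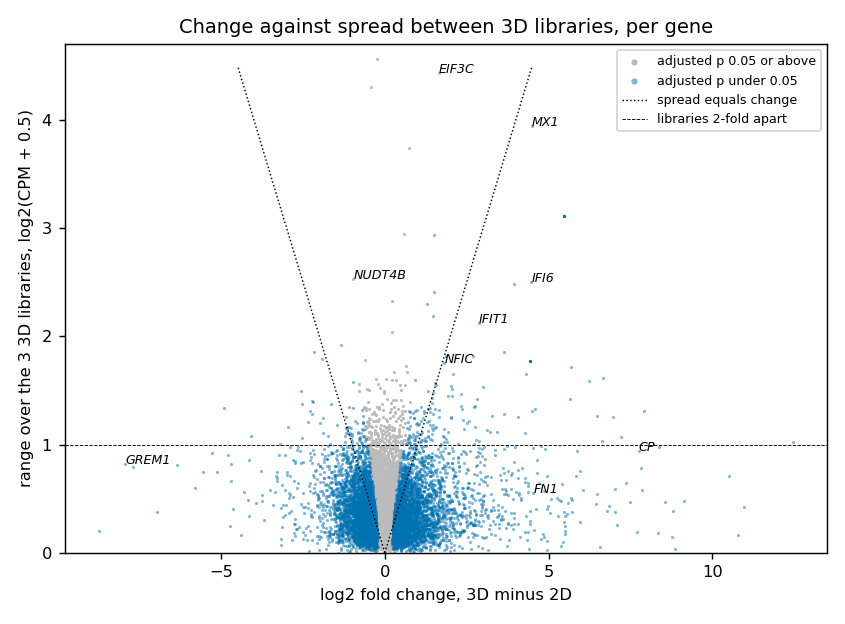
Each point is a gene with a mean of at least 5 CPM; the horizontal axis is its log2 fold change (3D minus 2D) and the vertical axis its range over the 3D libraries in log2(CPM + 0.5). Points above the dotted lines vary more between 3D libraries than they change, and the 406 genes above the dashed line include EIF3C, MX1 and IFI6.

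The genes named first are those with the widest gap between the nearest 2D and 3D libraries, so that the cultures are separated in them by choice; the same holds for most genes named in a list below. Nearest libraries lay at least 2-fold apart in 1268 genes higher in 3D (8.99%) and 615 genes lower (4.36%). The 12 widest gaps among rises were those of CP, CST1, CEACAM6, TPPP3, FCGBP, TXNIP, NOX1, SLPI, HLA-DMB, BPIFB1, EHF and MUC5B. FCGBP, a large protein of mucus, stood at 2.75, 3.21 and 4.00 CPM in 2D and 324, 358 and 423 in 3D, a change of 6.79 ± 0.18 on the log2 scale (edgeR adjusted p = 2.31e-08). SLPI, an inhibitor of leukocyte elastase secreted by airway epithelium, stood at 1.11, 0.51 and 0.649 CPM and at 72.2, 70.6 and 73.1. TPPP3, a tubulin-binding protein, went from 0.928 ± 0.139 to 129 ± 11.9 CPM (7.10 ± 0.15). EHF, an ETS factor restricted to epithelia, went from 4.44, 4.39 and 4.38 CPM to 197, 214 and 190.2 (5.51 ± 0.11). BPIFB1, a secreted lipid-binding protein of airway glands, had 2, 0 and 1 counts in the 2D libraries and 205, 163 and 667 in the 3D libraries. CST1, a cysteine protease inhibitor with near-identical relatives and therefore uncertain, stood at 85.7, 83.8 and 85 CPM in 3D and at 0.211, 0.102 and 0.216 in 2D.

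The 12 widest gaps among falls included those of GREM1, CDH4, NPTX1, IL11, CCBE1, COL5A1, COL4A1, TAGLN, ADAM19, COL7A1 and PMEPA1. TAGLN, an actin-binding protein of contractile cells, stood at 52.4, 57.5 and 58.5 CPM in 2D and 1.95, 0.793 and 1.4 in 3D, a change of -5.28 ± 0.18 on the log2 scale (edgeR adjusted p = 6.99e-08). PMEPA1, a membrane protein induced by TGF-beta, stood at 202, 213 and 225 CPM and at 10.7, 10.5 and 9.48 (-4.40 ± 0.11). ADAM19, a membrane-bound sheddase, fell by 4.74 ± 0.14 on the log2 scale. CCBE1, a secreted factor of lymphatic growth, had 443, 496 and 430 counts in the 2D libraries and 0, 0 and 2 in the 3D libraries. GREM1, an antagonist of bone morphogenetic proteins, had 2132, 2277 and 2262 counts in 2D and 6, 1 and 12 in 3D.

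**Figure D2:**
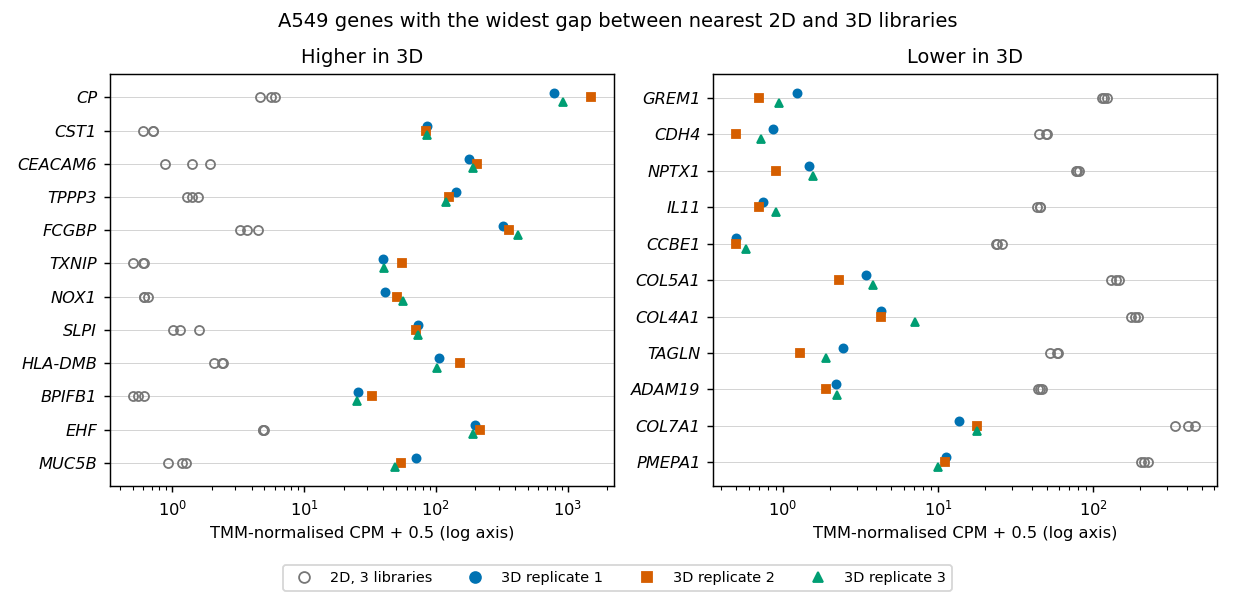
Genes of each direction among the 12 with the widest gap between the nearest 2D and 3D libraries are plotted with 1 point per library, on a log axis of TMM-normalised CPM + 0.5. Open circles are 2D libraries and filled symbols 3D libraries; the genes were chosen for the separation of the cultures, and CP is the most spread of the rises in 3D.

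Cells in Matrigel held less messenger RNA of several basement membrane proteins, the class of protein that the gel is built from. Of 13 tested genes of type IV collagen and other basement membrane proteins, 8 fell and 1 rose, with a median log2 fold change of -0.78, beside falls in 29.2% and rises in 32.9% of all genes and an overall median of 0.03. COL4A2, a chain of the main type IV collagen, stood at 301, 313 and 329 CPM in 2D and 14.5, 12.5 and 23 in 3D (-4.16 ± 0.20). COL4A1, its partner chain, stood at 175, 186 and 194 CPM and at 3.78, 3.77 and 6.64 (-5.13 ± 0.19). Replicate 3 was the highest 3D library for both chains. The nidogens, which link laminin to collagen, also fell, NID1 from 15 ± 0.235 to 3.76 ± 0.927 CPM (-1.88 ± 0.17) and NID2 from 6.58 ± 1.26 to 1.55 ± 0.393 CPM (-2.15 ± 0.24). The 1 rise was COL4A5, named as the exception after its values were seen, at 0.39 ± 0.13; it reversed to -0.17 with log2(TPM + 1) and missed the threshold without any one of 4 libraries (each of the 2D libraries and 3D replicate 3), with changes of 0.29 to 0.50.

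Laminins, the trimeric proteins to which epithelial cells attach, changed by chain. Of 11 tested chains 6 fell and 4 rose (median -0.50). LAMA3 and LAMB3 are chains of the same trimer, laminin-332, yet they moved in opposite directions. LAMA3 stood at 76.5, 78.6 and 76.4 CPM in 2D and 7.92, 7.33 and 10.1 in 3D (-3.13 ± 0.13). LAMB3, in contrast, stood at 20.8, 22.4 and 24.9 CPM and 91.9, 81.9 and 119.9 (2.12 ± 0.15). LAMA4, a chain of vessel and muscle basement membranes, rose from 1.37 ± 0.15 to 6.99 ± 2.14 CPM, and the widely made chains LAMB1 and LAMC1 changed by -0.83 ± 0.12 and -0.59 ± 0.11. LAMA5 fell by 0.50 ± 0.17, a call that was lost without 2D replicate 2 (-0.54) or 2D replicate 3 (-0.43).

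Among integrins, the receptors for these proteins, 9 of 23 tested subunits rose and 9 fell (median -0.24), shares not far from those of all genes, with 2 higher and 9 lower of 14 on the TPM scale. On centred TPM values 3 of 14 rose, and in counts thinned to the smallest library 5 of 17. ITGB4, the subunit of hemidesmosomes that binds laminin-332, stood at 30.1, 30.6 and 29.9 CPM in 2D and 129, 114 and 151 in 3D (2.13 ± 0.12). Its partner ITGA6 stood at 132, 147 and 133 CPM and 138, 211 and 180.3, a difference that did not pass (0.36 ± 0.14, edgeR adjusted p = 0.0527), although it did under 7 of the other settings, among them without 3D replicate 1 (0.49). ITGB1, the common partner of most matrix-binding alpha subunits, stood at 2911, 2998 and 2872 CPM and 1207, 2075 and 1662 (-0.83 ± 0.17), with 3D replicate 2 the nearest to 2D. ITGB6 and ITGB8 both pair with ITGAV and activate latent TGF-beta, but ITGB6 fell from 12.4 ± 1.47 to 1.04 ± 0.401 CPM (-3.77 ± 0.26) while ITGB8 rose from 3.94 ± 0.253 to 33.4 ± 8.13 CPM (3.04 ± 0.20). ITGAV itself fell by 0.67 ± 0.19, and the fibronectin receptor subunits ITGA5 and ITGA4 changed by -0.65 ± 0.09 and -3.06 ± 0.28. CD44, the receptor for hyaluronan, rose by 1.37 ± 0.15, and DDR1, a kinase activated by collagen, by 1.27 ± 0.12.

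Most changed collagens fell, while matricellular proteins changed in both directions. Of 12 tested interstitial collagens 8 fell and 2 rose (median -1.27), while 8 listed genes did not pass the filter on low counts. COL7A1, the anchoring fibril collagen, stood at 335, 407 and 449 CPM in 2D and 13, 17.2 and 17.4 in 3D (-4.63 ± 0.16). COL17A1, the transmembrane collagen of hemidesmosomes, rose from 2.09 ± 0.447 to 17.2 ± 2.84 CPM (3.07 ± 0.19), and COL3A1, a fibrillar collagen, from 1.69 ± 0.503 to 7.5 ± 2.24 CPM. FN1, which encodes fibronectin, stood at 154, 165 and 159 CPM and 3022, 3598 and 4436 (4.53 ± 0.16), and VTN, which encodes the serum adhesion protein vitronectin, at 3.96, 3.93 and 4.7 CPM and 131, 122 and 172 (5.08 ± 0.17). Replicate 3 was the highest 3D library for both. THBS1, which encodes thrombospondin, stood at 265, 277 and 281 CPM and 69.7, 68 and 75.2 (-1.95 ± 0.09), and SPP1, which encodes osteopontin, at 186, 189 and 183 CPM and 523, 475 and 562 (1.48 ± 0.09). Of 23 tested matricellular genes 8 rose and 10 fell, beside rises in 32.9% and falls in 29.2% of all genes. By at least 2-fold 7 rose and 8 fell, beside 16.4% and 9.46% of all genes. On the TPM scale 3 of 18 were higher and 12 lower.

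**Figure D3:**
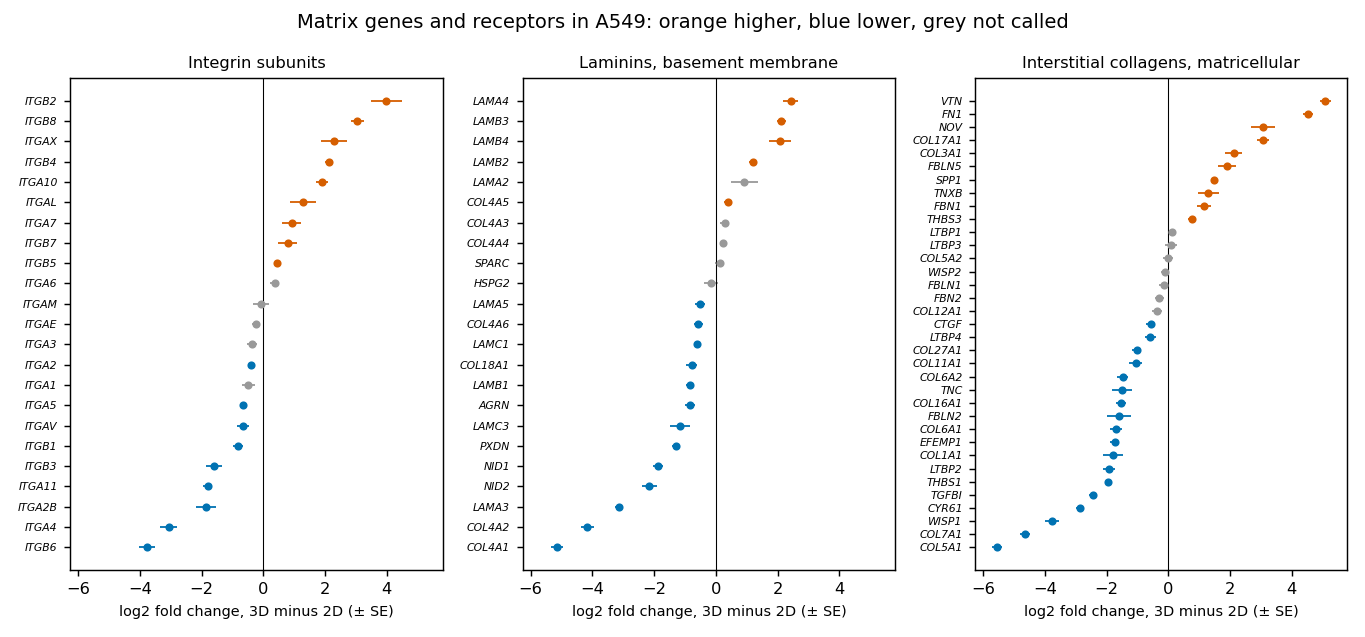
Log2 fold changes (3D minus 2D) with SE are shown for tested integrin subunits, laminin and basement membrane genes, and interstitial collagen and matricellular genes, sorted within each panel. Orange genes rose, blue genes fell and grey genes did not pass an edgeR adjusted p of 0.05; COL5A1, COL4A1 and COL7A1 lie at the lower end and VTN and FN1 at the upper end.

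Genes of matrix breakdown and crosslinking moved in both directions. Of 8 tested genes of plasminogen activation 5 fell and 1 rose (median -1.15). PLAU, which encodes urokinase, stood at 203, 205 and 210.2 CPM in 2D and 16.6, 17.4 and 27 in 3D (-3.29 ± 0.18). The urokinase receptor PLAUR stood at 23.9, 24.1 and 22.9 CPM and 21.8, 19.4 and 26 and did not pass (-0.05 ± 0.12, edgeR adjusted p = 0.751; -0.67 with log2(TPM + 1), which passed). Among metalloproteinases and their inhibitors 6 of 12 rose and 5 fell, beside rises in 32.9% and falls in 29.2% of all genes. In thinned counts 3 of 11 fell. MMP7, a metalloproteinase made by epithelial cells, rose from 10.1 ± 2.05 to 66.5 ± 6.26 CPM (2.72 ± 0.16) and MMP28 from 0.876 ± 0.164 to 29.2 ± 3.72 CPM (5.06 ± 0.18). The inhibitor TIMP1 rose by 1.64 ± 0.09, whereas TIMP2 fell by 1.13 ± 0.16. LOXL2, an enzyme that crosslinks collagen, fell from 119 ± 7.96 to 23.8 ± 4.79 CPM (-2.29 ± 0.14), and PLOD2, which hydroxylates collagen lysines, stood at 471, 473 and 462 CPM and 172, 351 and 169, where 3D replicate 2 lay nearer to 2D than to the other 3D libraries.

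Mucins and other genes of secretory cells rose. Of 14 tested members 14 rose and 0 fell; the other 8 listed genes did not pass the filter. Because a gene near 0 in 2D enters the test only if it is high in 3D, this count is a description only, as is that of every list with members that did not pass the filter, the microvillus, plasma protein, glucuronosyltransferase, interferon and superoxide enzyme lists among them. MUC5AC, a gel-forming mucin, stood at 1.59, 1.48 and 1.68 CPM in 2D and 45.8, 34.5 and 37.1 in 3D (4.63 ± 0.16). MUC5B, the main gel-forming mucin of airways, stood at 0.687, 0.765 and 0.433 CPM and 70.4, 53.5 and 48.2 (6.48 ± 0.23), and TFF1, a small secreted protein that accompanies mucins, at 0.264, 0.306 and 0.379 CPM and 14.1, 27.6 and 17.1 (5.88 ± 0.34). The 3 genes did not rank the 3D libraries alike: replicate 1 was highest for both mucins and replicate 2 for TFF1. FOXA3, a factor of goblet cell differentiation, rose from 1.28 ± 0.146 to 7.73 ± 0.263 CPM.

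Genes of the apical surface and of cell contacts moved less uniformly. Of 11 tested microvillus genes 9 rose and 1 fell (median 2.76), among them USH1C, a scaffold of brush border tips, from 1.46 ± 0.151 to 25.5 ± 1.32 CPM, its partner ANKS4B from 1.7 ± 0.16 to 25.1 ± 5.56 CPM, and MYO1A, the brush border myosin, from 0.158 ± 0.0555 to 14.8 ± 2.44 CPM. Of 17 tested tight junction genes 9 rose and 2 fell, with a median of 0.47, against 7 higher and 8 lower of 16 on the TPM scale, with a median of -0.23. The pore-forming claudin CLDN2 stood at 6.45, 6.22 and 6.92 CPM in 2D and 132, 108 and 159.9 in 3D (4.36 ± 0.16), and the sealing claudin CLDN4 at 2.38, 1.89 and 2.49 CPM and 11.7, 11.5 and 10.4 (2.30 ± 0.16). CLDN1 fell instead, from 77.6 ± 0.945 to 44.8 ± 11 CPM. The scaffold gene TJP1 and occludin gene OCLN differed by 0.07 ± 0.08 and -0.29 ± 0.15 and did not pass (edgeR adjusted p = 0.483 and 0.114), but OCLN fell without 3D replicate 2 (-0.48) and both were lower with log2(TPM + 1) (-0.50 and -0.72).

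Cadherins and catenins rose in 6 of 11 tested genes, with 2 lower, against 4 higher and 4 lower of 9 on the TPM scale. CDH1, the E-cadherin gene, stood at 13.3, 13.2 and 12.3 CPM in 2D and 56.3, 63.6 and 71.7 in 3D (2.31 ± 0.12), and CDH2, which encodes N-cadherin, at 102, 105 and 104 CPM and 41.2, 49 and 46 (-1.20 ± 0.10). CDH17, the cadherin of liver and intestine, stood at 6.39, 4.95 and 6.33 CPM and 264, 342 and 323 (5.72 ± 0.16). CDH2 and the mesenchymal filament gene VIM belong to a list of transition genes of which 6 of 10 fell and 0 rose, and 3 of 6 fell in thinned counts. VIM went from 962 ± 6.08 to 670.5 ± 43 CPM (-0.52 ± 0.09), and the repressor SNAI1 from 2.57 ± 0.956 to 0.446 ± 0.296 CPM (-2.12 ± 0.44, or -3.09 without 3D replicate 3). ZEB1, a repressor of E-cadherin, stood at 35.9, 34.5 and 34.4 CPM and 30.1, 43.8 and 29.3 and did not pass (-0.05 ± 0.15, edgeR adjusted p = 0.792), but fell without 3D replicate 2 (-0.24), the library where it was highest, and with log2(TPM + 1) (-0.56).

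The desmosome plaque protein gene DSP rose from 82.7 ± 1.9 to 239 ± 13.5 CPM (1.53 ± 0.09), and PKP2 from 9.64 ± 1.06 to 25.8 ± 2.94 CPM. Of 8 desmosome genes 4 rose and 0 fell in CPM, against 2 higher and 3 lower of 7 on the TPM scale. Keratins, the filaments anchored at desmosomes, rose in 7 of 10 tested genes and fell in 3 (median 1.65). KRT4, a keratin of stratified mucosa, stood at 14.8, 13.1 and 10.5 CPM in 2D and 363, 362 and 333 in 3D (4.78 ± 0.14), and KRT19, of simple and ductal epithelium, at 39.3, 43.4 and 41.5 CPM and 389, 316 and 402 (3.16 ± 0.12). KRT80 fell, from 78.2 ± 3.88 to 7.97 ± 2.82 CPM.

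Regulators of gut, liver and lung lineages rose with these genes. Of 21 tested transcription factors of endoderm and lung 16 rose and 1 fell (median 1.61). SOX9, a factor of progenitor and ductal cells, stood at 7.56, 6.63 and 6.16 CPM in 2D and 72, 41.6 and 36.6 in 3D (2.87 ± 0.25), with 3D replicate 1 well above the others. CEBPA, a factor of hepatocyte and alveolar maturation, stood at 4.54, 4.28 and 4.54 CPM and 18.8, 16.1 and 19.7 (2.04 ± 0.13). The 1 fall was HNF4A, a master factor of hepatocytes, from 43.1 ± 1.88 to 32.3 ± 1.95 CPM (-0.41 ± 0.10). Plasma proteins of hepatocytes nevertheless rose in 16 of 19 tested genes and fell in 1, while 14 listed genes did not pass the filter. FGA, the alpha chain of fibrinogen, stood at 30.7, 27.6 and 25.5 CPM and 144, 294 and 184 (2.88 ± 0.24), and TF, which encodes the iron carrier transferrin, at 0.317, 0.153 and 0.216 CPM and 17.8, 36.9 and 18.7. ALB, the albumin gene, had 0, 1 and 1 counts in 2D and 19, 20 and 33 in 3D. Replicate 2 was the highest 3D library for all 3 in CPM, as it was in 11 of the 19 genes, against 39.5% of all genes tested. In these bulk libraries fewer cells of a type and less RNA per cell cannot be told apart.

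**Figure D4:**
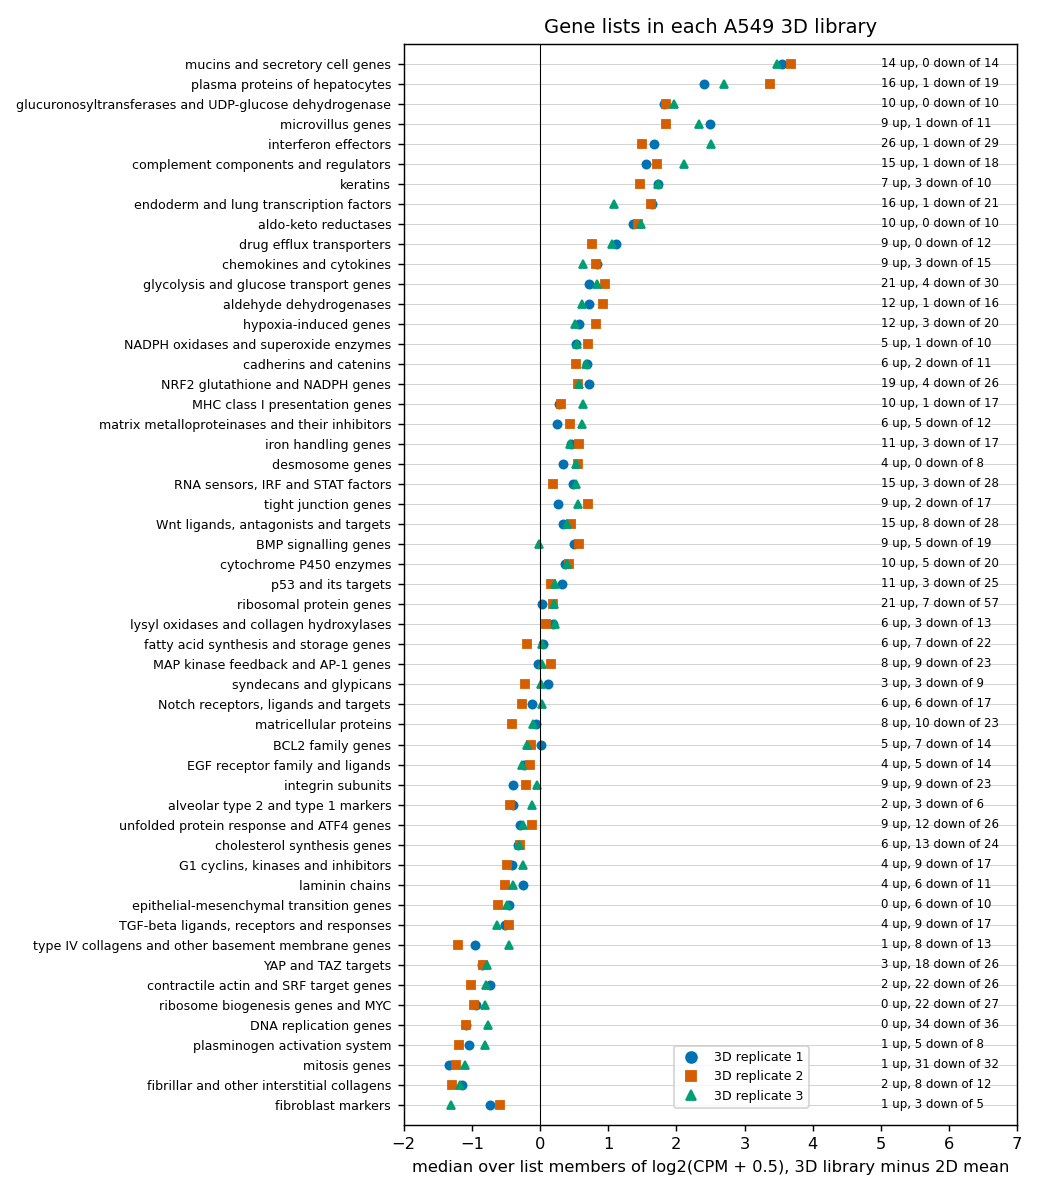
Each row is a gene list with at least 5 tested members, and each symbol the median over those members of log2(CPM + 0.5) in 1 3D library minus the 2D mean. Numbers at the right count the members that rose and fell by edgeR. The list medians of the 3D libraries lie close together for mitosis genes and YAP and TAZ targets. They lie apart for interferon effectors and plasma proteins.

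Targets of YAP and TAZ, the co-activators that respond to spreading and tension, were lower in Matrigel. Of 26 tested targets 18 fell and 3 rose (median -0.81), where 29.2% of all genes fell. Short stretches before the start sites of targets are shown because this list is defined by a shared regulator. The RefSeq promoter table (build GRCh38.p14) was searched on either strand, limited to the bases before the start site. The letters GGAATG, a core bound by the TEAD partners of YAP and TAZ, were found in 9 of 17 matched targets (52.9%). Of all gene symbols of that table, 14.3% had a match. The windows of AJUBA (chr14:22976890-22976907, minus strand) and AMOTL2 (chr3:134374505-134374522, minus strand) read as follows on the gene's strand, with the match in capitals.
AJUBA: ttggctGGAATGaagcca
AMOTL2: ctctcaCATTCCtggcat
AJUBA, a LIM protein that inhibits the Hippo kinases, stood at 225, 245 and 249.6 CPM in 2D and 32, 34.9 and 34.8 in 3D (-2.82 ± 0.10), and AMOTL2, a feedback inhibitor of YAP, at 133, 142 and 139 CPM and 34.1, 29.1 and 34.5 (-2.07 ± 0.10). CYR61 fell by 2.86 ± 0.14, but CTGF, the textbook target, only from 33.1 ± 1.67 to 22.8 ± 4.06 CPM (-0.57 ± 0.14). Of the 3 targets that rose, IGFBP3, a carrier of insulin-like growth factors, went from 66.6 ± 4.83 to 392 ± 93.7 CPM, NT5E, a surface nucleotidase, from 72.1 ± 1.39 to 152 ± 44.9 CPM, and MYOF, a membrane repair protein, by 0.44 ± 0.09, which reversed to -0.13 with log2(TPM + 1). The messengers of the co-activators were not lower in CPM: YAP1 stood at 89.2, 91.4 and 88.7 and 102, 120.3 and 84.3 (0.18 ± 0.13, edgeR adjusted p = 0.251; 0.26 without 3D replicate 3, which passed) and WWTR1, which encodes TAZ, at 134, 131 and 136 and 230.3, 188 and 157 (0.52 ± 0.13). With log2(TPM + 1) YAP1 was lower (-0.40) and WWTR1 reversed to -0.08, where the median gene lay at -0.51.

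Genes of the contractile actin system fell alongside. Of 26 tested actin and SRF target genes 22 fell and 2 rose (median -0.86). TPM1, a tropomyosin of stress fibres, stood at 1074, 1164 and 1091 CPM in 2D and 156, 182 and 166 in 3D (-2.73 ± 0.10), and SRF, the factor that drives these genes, at 31.8, 32.4 and 30.9 CPM and 11.3, 9.91 and 12.6 (-1.46 ± 0.11). The exceptions were ACTA2, the smooth muscle actin, which rose from 8.31 ± 0.808 to 21.8 ± 3.21 CPM, and the actin crosslinker LIMA1, from 22.7 ± 1.5 to 44.3 ± 2.27 CPM.

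Of 17 tested TGF-beta genes 9 fell and 4 rose (median -0.68). TGFB2, a ligand, stood at 139, 142 and 137 CPM in 2D and 24, 24 and 20.3 in 3D (-2.63 ± 0.10), and the receptor gene TGFBR2 at 91.2, 93.4 and 88 CPM and 240.4, 206 and 214 (1.28 ± 0.09). The targets SMAD7, an inhibitory SMAD, and TGFBI, a secreted matrix protein, fell from 39.6 ± 3.75 to 10.2 ± 2.08 and from 1429 ± 58.6 to 264 ± 44.3 CPM. Of the BMP list 9 of 19 rose and 5 fell, with a median of 0.37, against 6 higher and 9 lower of 18 on the TPM scale, with a median of -0.31. The ligand gene BMP4 rose from 1.31 ± 0.446 to 9.42 ± 0.241 CPM (2.84 ± 0.23), and GREM1, FST and FSTL3, which bind and block BMPs or activins, fell; FST changed by -2.11 ± 0.21 and FSTL3 by -1.92 ± 0.17. ID1, a direct target of BMP receptors, stood at 45.1, 38.1 and 43.4 CPM and 411, 352 and 379 (3.18 ± 0.11), ID4 at 0.106, 0.102 and 0.108 CPM and 15.7, 25.2 and 11.8, and BAMBI, a decoy receptor induced by BMP and Wnt, at 16, 16.6 and 17 CPM and 184, 201 and 184 (3.52 ± 0.10).

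Wnt genes rose in 15 of 28 and fell in 8 (median 0.40), against 5 higher and 11 lower of 25 on the TPM scale (median -0.16). AXIN2, a feedback target of beta-catenin, stood at 1.8, 1.84 and 1.41 CPM in 2D and 20.1, 23.6 and 24.4 in 3D (3.75 ± 0.16), and RNF43, a ligase that removes Wnt receptors, at 1.8, 1.48 and 1.14 CPM and 21.9, 15.3 and 25.4 (3.86 ± 0.23). The receptor gene FZD2 fell from 96.1 ± 4.79 to 14 ± 1.37 CPM (-2.76 ± 0.11), while CTNNB1, which encodes beta-catenin, did not pass (-0.07 ± 0.10, edgeR adjusted p = 0.532; -0.65 with log2(TPM + 1), which passed). In the Notch list 6 of 17 rose and 6 fell, shares near those of all genes, against 3 higher and 7 lower of 12 on the TPM scale. The receptor gene NOTCH3 stood at 8.24, 5.51 and 7.52 CPM and 47.3, 26.4 and 39.1 (2.42 ± 0.22), the ligand gene JAG1 fell by 1.36 ± 0.09, and the target HES1 rose by 1.41 ± 0.12. In thinned counts 3 of 12 rose, and on centred TPM values 3 of 12 fell.

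In the list of EGF receptors and ligands 4 of 14 rose and 5 fell, shares near those of all genes, against 2 higher and 9 lower of 13 on the TPM scale. EREG, which encodes epiregulin, stood at 316, 348 and 337 CPM in 2D and 35.7, 34.3 and 26.2 in 3D (-3.40 ± 0.13), and AREG, which encodes amphiregulin, at 83, 83 and 79.5 CPM and 9.01, 11.5 and 11.8 (-2.91 ± 0.12). ERBB3, the kinase-impaired partner of EGFR and ERBB2, stood at 2.59, 2.4 and 2.43 CPM and 32.3, 33.7 and 32.8 (3.73 ± 0.12), and EGFR fell by 0.61 ± 0.16. ERBB2 differed by 0.25 ± 0.11 and did not pass (edgeR adjusted p = 0.0806), but rose without 3D replicate 2 (0.34) and by limma's voom with group quality weights (0.27). Downstream, the AP-1 partners moved apart: JUN stood at 42.8, 43.9 and 44.1 CPM and 4.38, 2.77 and 3.87 (-3.51 ± 0.14), and FOS at 0.793, 0.969 and 0.757 CPM and 11.9, 18.8 and 10.3 (3.95 ± 0.28). The phosphatase gene DUSP1, induced by stress and serum, fell from 189.7 ± 4.58 to 21.1 ± 0.519 CPM, and DUSP6, the feedback phosphatase of ERK, rose from 13 ± 0.359 to 41.1 ± 9.39 CPM. In the MAP kinase and AP-1 list as a whole 8 of 23 rose and 9 fell, again near the shares of all genes, against 5 higher and 14 lower of 22 on the TPM scale.

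Genes of oxidant defence mostly rose in CPM. Of 26 tested NRF2 glutathione and NADPH genes 19 rose and 4 fell (median 0.61), but 11 rose and 8 fell with log2(TPM + 1). The letters TGACNNNGC (N is any base) are the core of the antioxidant response element. On either strand before the start site they were found in 10 of 22 matched members (45.5%). GCLM and TXNRD1, which fell, are among those 10. Of all gene symbols of the RefSeq promoter table, 13.2% had a match. Windows are shown for 3 members that rose, GPX2 (chr14:64942853-64942873, minus strand), ME1 (chr6:83431174-83431194, minus strand) and IDH1 (chr2:208255200-208255220, minus strand), on the gene's strand, build GRCh38.p14, with the match in capitals.
GPX2: gtttttGCTAAGTCAtcctgg
ME1: ctgccaTGACTCAGCgcttct
IDH1: tctcgcTGACTCCGCccatcc
GPX2, a glutathione peroxidase of epithelia, stood at 137, 152 and 158 CPM in 2D and 2218, 2069 and 2668 in 3D (3.96 ± 0.13). ME1 and IDH1, which make cytosolic NADPH, stood at 135, 129.8 and 121 and 254, 253 and 232 CPM in 2D and at 355, 327 and 277 and 517, 587 and 567 CPM in 3D (1.31 ± 0.11 and 1.18 ± 0.09). NQO1, the classic target of NRF2, rose from 2208 ± 68.5 to 4100.3 ± 179.5 CPM (0.89 ± 0.09). The falls were those of HMOX1, the heme oxygenase, from 158 ± 9.05 to 51.2 ± 12 CPM (-1.60 ± 0.15), SLC7A11, the cystine importer (-0.96 ± 0.13), GCLM, of glutathione synthesis (-0.56 ± 0.12), and TXNRD1, a thioredoxin reductase (-0.28 ± 0.11). The last call was lost without any single 2D library, under the replicate block, with thinned counts and with a filter at 1 CPM, with changes of -0.35 to -0.22 when single libraries were left out.

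Enzymes of aldehyde and xenobiotic metabolism also rose. All 10 tested aldo-keto reductases rose in CPM (median 1.45), against 7 higher and 0 lower of 10 on the TPM scale, and the list summed to 11000 to 11660 CPM in 2D and 32130 to 35920 in 3D. AKR1C1 stood at 649.6, 657 and 768 CPM and 4268, 4337 and 4242 (2.63 ± 0.10) and AKR1B15 at 11, 9.69 and 11.7 CPM and 263, 272 and 235 (4.57 ± 0.12); both have near-identical paralogs, so the split of reads is uncertain. Of 16 tested aldehyde dehydrogenases 12 rose and 1 fell, against 7 higher and 4 lower of 16 on the TPM scale. They include ALDH3A1, which oxidises aromatic and fatty aldehydes, at 691, 683 and 721 CPM and 5889, 4629.8 and 5897 (2.97 ± 0.12). ALDH2, the mitochondrial enzyme of acetaldehyde, stood at 74.3, 77.1 and 76 CPM and 366, 417 and 379.5 (2.35 ± 0.09). Of the glucuronosyltransferase list 10 of 10 tested genes rose, against 4 higher and 0 lower of 6 on the TPM scale, and 7 did not pass the filter. UGT2B15 had 0, 0 and 0 counts in the 2D libraries and 34, 8 and 77 in the 3D libraries, and is uncertain because the family shares sequence.

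Cytochrome P450 genes rose in 10 of 20 and fell in 5 (median 0.33), beside rises in 32.9% and falls in 29.2% of all genes. On the TPM scale 6 of 16 were higher and 7 lower (median -0.24). CYP3A5, a major drug-metabolising enzyme, went from 1.64 ± 0.365 to 18.4 ± 3.13 CPM (3.46 ± 0.20), and CYP4F11, which hydroxylates fatty acids and vitamin K and resembles its CYP4F neighbours, from 19.2 ± 1.31 to 116 ± 15.3 CPM. Efflux transporters rose in 9 of 12 and fell in 0 (median 1.03), against 4 higher and 3 lower of 11 on the TPM scale (median 0.31). ABCC3 stood at 257, 254 and 266 CPM in 2D and 749.9, 613 and 779 in 3D (1.46 ± 0.11), ABCC2 at 389.8, 383 and 391 CPM and 833, 822 and 992 (1.19 ± 0.10), and the sterol exporter ABCG1 at 4.17, 4.44 and 5.19 CPM and 35.6, 36.7 and 35.6 (2.96 ± 0.12). Iron handling genes rose in 11 of 17 and fell in 3 (median 0.55), against 5 higher and 6 lower of 16 on the TPM scale (median -0.01). The iron exporter gene SLC40A1 stood at 27.9, 29.4 and 27.4 CPM and 204, 222 and 181 (2.84 ± 0.11), and the siderophore-binding protein gene LCN2 at 0.264, 0.102 and 0.162 CPM and 26.2, 17.6 and 26.8, whereas the transferrin receptor TFRC did not pass (-0.17 ± 0.17, edgeR adjusted p = 0.4), except that it fell without 3D replicate 2 (-0.38) and with log2(TPM + 1) (-0.77).

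Most genes of glucose use and of hypoxia rose in CPM, some of them unevenly between the 3D libraries. The median 3D range was 0.626 for hypoxia genes and 0.368 for glycolysis genes, against 0.41 over all genes tested. Of 30 tested glycolysis genes 21 rose and 4 fell (median 0.84), and 14 rose and 8 fell with log2(TPM + 1). ALDOC, a brain-type aldolase, stood at 1.37, 0.765 and 1.19 CPM in 2D and 42.3, 95.7 and 35.4 in 3D (5.65 ± 0.45), and PDK4, which shuts pyruvate out of mitochondria, at 3.33, 3.26 and 2.05 CPM and 131, 183 and 141 (5.71 ± 0.21). ARRDC4, like TXNIP an arrestin induced by glucose, rose from 0.613 ± 0.0438 to 11.4 ± 2.22 CPM. Of 20 tested hypoxia-induced genes 12 rose and 3 fell (median 0.72), and 6 rose and 6 fell with log2(TPM + 1). CA9, a carbonic anhydrase, stood at 0.898, 1.12 and 1.19 CPM and 19.7, 44.8 and 17.6 (4.59 ± 0.41), and EGLN3, an oxygen-sensing hydroxylase, at 5.55, 4.74 and 4.87 CPM and 87.4, 129.8 and 80.0 (4.28 ± 0.20). Replicate 2 was the highest 3D library for ALDOC, CA9 and EGLN3, for 15 of 20 hypoxia genes and for 21 of 30 glycolysis genes, against 39.5% of all genes tested. Without that library 12 of 20 hypoxia genes rose and 3 fell, and 21 of 30 glycolysis genes rose and 4 fell. VEGFA, the vascular growth factor, fell from 26.3 ± 1.07 to 14.2 ± 0.768 CPM (-0.89 ± 0.10), and the glucose transporter SLC2A1 did not pass (-0.07 ± 0.08, edgeR adjusted p = 0.524; -0.63 with log2(TPM + 1), which passed).

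Cholesterol synthesis genes fell in 13 of 24 and rose in 6 (median -0.31), against 3 higher and 18 lower of 24 on the TPM scale. SQLE, an early oxidation step, went from 137 ± 3.92 to 71.1 ± 5.03 CPM (-0.95 ± 0.09), while TM7SF2, a late reductase of the pathway, stood at 4.6, 3.57 and 4.43 CPM in 2D and 23.4, 18.2 and 26.2 in 3D (2.46 ± 0.17). In the unfolded protein and ATF4 list 12 of 26 fell and 9 rose, against 1 higher and 16 lower of 26 on the TPM scale, beside falls in 29.2% and rises in 32.9% of all genes. The leucine importer gene SLC7A5 stood at 1143, 1100.2 and 1129 CPM and 150.3, 99.7 and 196 (-2.91 ± 0.21) and its partner SLC3A2 at 699.7, 721 and 707 CPM and 193, 185 and 256 (-1.74 ± 0.13), but XBP1, the secretory stress factor, at 63.5, 59.2 and 59.1 CPM and 313, 435 and 287 (2.51 ± 0.16).

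Most tested interferon effectors rose, with wide differences between the 3D libraries. Of 38 listed genes 29 passed the filter, of which 26 rose and 1 fell (median 2.40). The letters GAAA, any 2 bases and again GAAA are the core to which interferon-activated factors bind. On either strand before the start site they were found in 22 of 30 matched list members (73.3%). Of all gene symbols of the RefSeq promoter table, 3.71% had a match. Windows are shown for 3 of the least even members, IFI6 (chr1:27672270-27672354, minus strand), ISG15 (chr1:1013378-1013405, plus strand) and IFIT1 (chr10:89392501-89392535, plus strand), on the gene's strand, build GRCh38.p14, with matches in capitals.
IFI6: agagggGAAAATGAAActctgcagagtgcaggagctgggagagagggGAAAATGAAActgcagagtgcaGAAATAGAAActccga
ISG15: cctcggGAAAGGGAAACCGAAActgaag
IFIT1: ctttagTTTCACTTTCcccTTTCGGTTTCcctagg
A match is a description of these letters and not a bound site. IFI6, an interferon-induced membrane protein, stood at 2.17, 2.14 and 2.6 CPM in 2D and 33.4, 16.5 and 95.3 in 3D (4.47 ± 0.59, edgeR adjusted p = 1.64e-04). ISG15, a ubiquitin-like modifier, stood at 0.634, 1.43 and 1.57 CPM and 11.9, 5.55 and 33.4 (3.96 ± 0.61), and IFIT1, which binds foreign RNA, at 3.96, 3.82 and 3.89 CPM and 15, 11.5 and 51.6 (2.86 ± 0.50). In all of them the 3D order was replicate 3, then 1, then 2, and even replicate 2 lay above every 2D library. MX1, an antiviral GTPase, stood at 1.00, 0.918 and 1.14 CPM and 6.82, 2.77 and 50.0 (4.48 ± 0.93), and IFI27 at 0.264, 0.051 and 0 CPM and 2.68, 1.39 and 18.

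Replicate 3 was the highest 3D library in 27 of the 29 tested interferon effectors, against 32.3% of all genes tested, and 12 of them lay over 2-fold apart in 3D, against 6.85% of all genes. The list's median over 2D was 1.67 in replicate 1, 1.50 in replicate 2 and 2.51 in replicate 3, on the log2(CPM + 0.5) scale. Without replicate 3, 23 of 29 still rose with a median of 1.75, and MX1 was at 2.27, IFI6 at 3.44, ISG15 at 2.87 and IFIT1 at 1.75. With each library thinned to the smallest total, 24 of 26 rose with a median of 2.41. With log2(TPM + 1), 17 of 26 rose and 2 fell. Steadier members were OAS1, a sensor of double-stranded RNA, at 116, 124 and 168 CPM in 3D over 10.5, 9.18 and 10.5 in 2D (3.77 ± 0.16), and LGALS3BP, a secreted glycoprotein, at 223, 184 and 324 over 70.0, 69 and 70.2 (1.81 ± 0.18). The 1 fall was HERC5, the ligase that attaches ISG15, from 12.3 ± 1.59 to 6.81 ± 1.48 CPM (-0.78 ± 0.18). The letters searched for in this list were found before its start site too, with 3 matches.

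**Figure D5:**
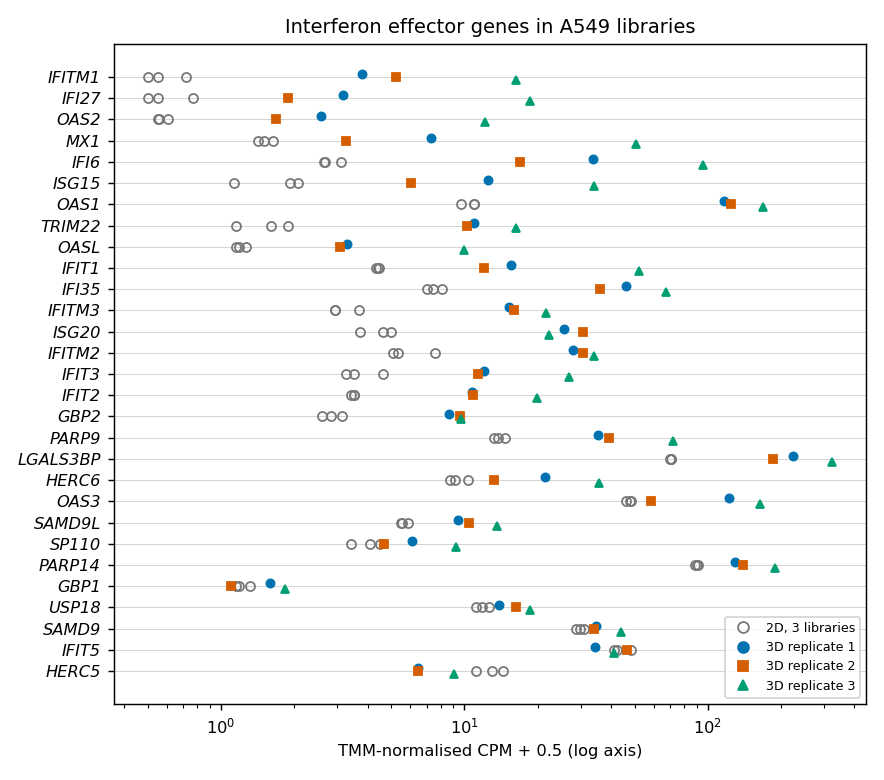
All 29 tested interferon effectors are plotted with 1 point per library on a log axis of TMM-normalised CPM + 0.5, open for 2D and filled for 3D. Triangles (3D replicate 3) lie at the right of the 3D symbols in 27 of 29 genes, and MX1 runs from 2.77 to 50.0 CPM among the 3D libraries.

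Upstream of these effectors, 15 of 28 sensors and transcription factors rose and 3 fell, with a median of 0.49. On the TPM scale 5 of 24 were higher and 9 lower, with a median of -0.26. Replicate 3 was the highest 3D library in 22 of the 28, against 32.3% of all genes tested. Without that library 13 rose and 5 fell, with a median of 0.28. IRF9, the DNA-binding part of the interferon-activated complex, stood at 6.71, 6.63 and 7.84 CPM in 2D and 36.7, 24.2 and 46.9 in 3D (2.39 ± 0.22), and IRF7 at 1.74, 2.09 and 2.43 CPM and 7.18, 3.77 and 12.9 (2.07 ± 0.36, or 1.41 without 3D replicate 3; 0.86 with log2(TPM + 1), which did not pass). The feedback inhibitor SOCS3 fell from 40.8 ± 2.73 to 5.47 ± 1.05 CPM (-2.82 ± 0.14), SOCS2 from 16.3 ± 0.542 to 0.786 ± 0.224 CPM (-4.17 ± 0.18), and the kinase gene JAK1 from 429.9 ± 6.74 to 203 ± 7.55 CPM (-1.08 ± 0.08). The cytokine genes IL11 and LIF, which signal through JAK1, also fell, LIF from 92.7, 92.4 and 98.9 CPM to 13.5, 8.52 and 14.2 (-2.91 ± 0.16).

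Antigen presentation and complement rose in part. HLA-DMB and HLA-DMA encode the chaperone that loads class II molecules. HLA-DMB stood at 1.59, 1.94 and 1.89 CPM in 2D and 106, 153 and 102 in 3D (6.04 ± 0.21), and HLA-DMA at 1.48, 1.22 and 1.14 CPM and 21.2, 24.4 and 20.1 (4.07 ± 0.16), while only 3 of 14 class II genes passed the filter. In class I presentation 10 of 17 rose and 1 fell (median 0.57), against 3 higher and 5 lower of 17 on the TPM scale (median -0.07). HLA-C went from 18.2 ± 0.247 to 51.1 ± 7.14 CPM, uncertain because class I genes share sequence. Without 3D replicate 3, 3 of 17 fell. Complement genes rose in 15 of 18 and fell in 1 (median 1.76). C3, the central component, stood at 13.5, 13 and 13.7 CPM and 218, 173 and 279.6 (4.06 ± 0.18), and CFB, which cuts it in the alternative pathway, at 1.22, 1.12 and 1.19 CPM and 39.5, 44.4 and 55.6 (5.31 ± 0.18). Both were highest in replicate 3. Some leukocyte markers rose in the same libraries. CD14 stood at 23.1, 17.4 and 19 CPM in 3D over 1.96, 1.94 and 2.05 in 2D. CD68 stood at 17.2, 13.3 and 25.9 over 3.38, 3.62 and 3.73. ITGAM, at 3.53, 1.98 and 4.57 over 3.28, 3.88 and 4.49, was the 1 of 4 tested leukocyte markers that did not pass (edgeR adjusted p = 0.838). The T and B cell markers CD3E and MS4A1 were at 0. The part of these markers in the result was not tested.

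Proliferation genes fell, and the median of the mitosis list was similar in the 3D libraries. Single mitosis genes were no steadier than others, with a median 3D range of 0.421 against 0.41 over all genes tested. Of 32 mitosis genes 31 fell and 1 rose (median -1.23), and the list's median was -1.34, -1.23 and -1.10 in 3D replicates 1, 2 and 3. CENPA, the centromeric histone, stood at 47.9, 49.1 and 46.8 CPM in 2D and 15.3, 14.3 and 14.5 in 3D (-1.70 ± 0.10), and BUB1, a spindle checkpoint kinase, at 150.0, 148 and 145 CPM and 53.1, 57.1 and 56.2 (-1.42 ± 0.09). The 1 rise was the CDK phosphatase CDC25B, at 91.1, 87.1 and 81.8 CPM and 222, 121 and 182 (1.02 ± 0.18), which did not pass with log2(TPM + 1) (0.37). MKI67, which encodes the marker Ki-67, did not fall in CPM. It stood at 121, 109 and 114 CPM and 194, 107 and 145, overlapped between cultures, and did not pass (0.38 ± 0.18, edgeR adjusted p = 0.0921), although it rose without 3D replicate 2 (0.55). Of 36 DNA replication genes 34 fell and 0 rose, and the list's median was -1.09, -1.08 and -0.76 in 3D replicates 1, 2 and 3. Replicate 3 was the highest 3D library in 28 of the 36, against 32.3% of all genes tested. ORC6, of the origin recognition complex, went from 48.5 ± 2.62 to 12.8 ± 1.79 CPM (-1.89 ± 0.13). UHRF1, which maintains DNA methylation, went from 122 ± 1.89 to 26 ± 8.34 CPM (-2.18 ± 0.19).

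G1 cyclins, kinases and inhibitors rose in 4 of 17 and fell in 9, against 2 higher and 10 lower of 17 on the TPM scale. CDKN1A, the p21 inhibitor of cyclin-dependent kinases, stood at 66.6, 70.5 and 75.7 CPM in 2D and 200.0, 129 and 234 in 3D (1.41 ± 0.19), while CDK2 fell from 83.5 ± 1.78 to 30.8 ± 4.87 CPM (-1.41 ± 0.12) and CCND3, a G1 cyclin, rose by 1.36 ± 0.09. Of 25 genes of the p53 list 11 rose and 3 fell (median 0.26), beside rises in 32.9% and falls in 29.2% of all genes. On the TPM scale 5 of 25 were higher and 12 lower, with a median of -0.28. The survival gene BCL2A1 stood at 21.9, 21.4 and 20.9 CPM and 0.365, 0.595 and 1.03 (-4.70 ± 0.22, or -5.57 without 3D replicate 3), and the death-promoting BBC3 at 3.65, 3.72 and 4.06 CPM and 11.3, 14.3 and 10.4 (1.62 ± 0.16). MYC fell from 128 ± 3.17 to 56.6 ± 5.36 CPM (-1.16 ± 0.10). In the list that holds MYC and the ribosome biogenesis genes, 22 of 27 tested genes fell, MYC included, and 0 rose. DKC1, of the pseudouridine-making particle, went from 197 ± 4.85 to 82.2 ± 6.99 CPM (-1.25 ± 0.09).

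Ribosomal protein genes gave no firm direction. In CPM 21 of 57 rose and 7 fell (median 0.18), with log2(TPM + 1) 0 rose and 45 fell, and on centred TPM values 8 rose and 12 fell. Rises numbered 10, 8 and 9 of 57 when single 2D libraries were left out. RPL35 stood at 267, 275 and 255 CPM in 2D and 431, 404 and 444 in 3D (0.68 ± 0.09) and RPS9 at 323, 336 and 319 CPM and 479, 472 and 459.8 (0.53 ± 0.08), and both reversed with log2(TPM + 1), to -0.08 and -0.14. Both have processed pseudogenes and are uncertain. These genes are short. Over all genes the median log2 fold change was 0.29 in the shortest of 5 equal classes of gene length. It was -0.13 in class 4 and 0.01 in class 5, the longest. Fragments were shorter in 3D, and the part of length was not tested.

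Small and ribosomal RNA aside, the genes with the largest range between 3D libraries, at a 3D mean of at least 20 CPM, were EIF3C, NUDT4B, IFI6, IFIT1, NFIC and RPL36A-HNRNPH2. EIF3C, a translation initiation factor subunit, stood at 12.9, 26.1 and 14.6 CPM in 2D and 74.9, 3.37 and 82.9 in 3D. Its near-identical copy EIF3CL shares its reads, and the sum of both was 328, 309 and 309.9 CPM in 2D and 274, 237 and 252 in 3D, without the range seen in EIF3C alone. NUDT4B, a copy of the diphosphoinositol phosphatase gene NUDT4, stood at 55, 52.8 and 54.1 CPM and 22.9, 58.9 and 9.81, and here the sum with NUDT4 remained uneven, at 66.5, 66.6 and 67.9 CPM in 2D and 33.4, 75.7 and 20.8 in 3D. Neither gene passed in CPM (edgeR adjusted p = 0.0598 and 0.113), and both passed without 3D replicate 2 (2.15 and -1.90). NFIC, a transcription factor of tooth root development, stood at 5.76, 5.35 and 6.11 CPM and 35.9, 10.3 and 14.5 (1.82 ± 0.38, or 1.16 without 3D replicate 1; 0.66 with log2(TPM + 1), which did not pass). RPL36A-HNRNPH2, a readthrough annotation that overlaps both its genes and is therefore uncertain, stood at 3.22, 0 and 5.03 CPM and 34.7, 102 and 32.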

How the data were processed

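RNA sequencing of 6 A549 libraries was analysed, 3 from 2D culture and 3 from Matrigel, with groups and replicate numbers taken from the titles. The deposited tables hold gene-level RSEM estimates on the human build hg19, per the submitters' processing notes. Not given in the sources used here are the RSEM version, the aligner, the annotation and whether counting used strand. Because of the last, reads of a gene and an overlapping antisense gene cannot be told apart. Expected counts, deposited for 27968 gene symbols, split reads shared between genes by estimation and are not normalised. TPM values, deposited in the same tables, are scaled to effective length and library total. The 2D libraries held 16453891 to 17717695 expected counts and the 3D libraries 5609327 to 28171901, so low genes are least precise in 3D replicate 2. The number of columns that belong to another series was 0.

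Expected counts were rounded, filtered with filterByExpr, scaled by TMM and tested with edgeR 4.0.16 in R 4.3.3 (quasi-likelihood test, Benjamini-Hochberg adjustment over 14111 genes, and glmTreat for changes beyond 2-fold). Ranges and gaps used log2(CPM + 0.5), and TPM values of at least 1 in 3 libraries were tested with limma 3.58.1 on log2(TPM + 1) or log2(TPM + 0.1). The steps were also run on simulated counts in which few genes changed. Most genes differed in these data, so that run cannot show how well the scaling held here. Alternatives were other scalings, DESeq2 1.42.0, other filters, limma's voom with group quality weights, all 12 libraries in 1 model, the replicate number as a block, removal of ribosomal and small RNA genes, thinning to 5609306 counts per library, and leaving out each library. TPM values centred on each library's median gene were added after seeing the data.

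The 56 gene lists (1224 entries, 1217 of them found in the tables) and all comparisons were chosen with earlier results of these data known. Named genes are the 12 of each direction with the widest gap between nearest libraries at a group mean of at least 10 CPM, up to 4 such members of each list at 2 CPM, the 6 genes of widest 3D range at 20 CPM, and key members of a list such as its founding ligand, receptor or enzyme. Some genes that these rules name are not reported here or drawn in figures, though they stay in all counts. Members named as exceptions of a list were chosen after their values were seen. Promoter sequences come from a RefSeq table of GRCh38.p14, matched by symbol, with the hg19 tables giving no coordinates. No replicate pairing was stated: same-numbered libraries had correlated deviations of -0.0695, 0.148 and 0.138, so the numbers were not treated as pairs.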

Additional observations from a re-analysis of the deposited data

How the results depend on the processing

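The CPM of all 3D libraries rests on shorter fragments and more ribosomal RNA than in 2D, and low genes are least certain in 3D replicate 2, the smallest library. Calls higher and lower in 3D numbered 4640 and 4120; 1660 and 7568 on log2(TPM + 1), and 1643 and 7496 on log2(TPM + 0.1). Genes called with at least a 2-fold change numbered 2316 higher and 1335 lower, against 700 and 2677, 890 and 3420, and 1386 and 768 on log2(TPM + 1), log2(TPM + 0.1) and centred TPM values. Genes beyond 2-fold numbered 384, 518 and 718 higher on those scales, against 1501, and 1229 lower on log2(TPM + 0.1), 237 on centred TPM values, 451 with DESeq2 and 423 with group quality weights, against 683. The cause was not tested, beyond the shift of the median gene given above. Of the 8760 calls, 5460 kept call and sign on log2(TPM + 1) and 1158 reversed sign. On log2(TPM + 0.1) the numbers were 5446 and 1164, and on centred TPM values 7197 and 21. Among named genes, the log2 fold changes that reversed on the 2 TPM scales, in that order of pseudocounts, were those of ETV5 (-0.01 and -0.01), RPL35 (-0.08 and -0.08), RPS9 (-0.14 and -0.15), COL4A5 (-0.17 and -0.19), MYOF (-0.13 and -0.13) and WWTR1 (-0.08 and -0.08). Over all pairs of a named gene and an alternative, 5984 kept direction and call, 86 lost the call, 89 gained it and 12 reversed. Most named genes were chosen for the separation of the cultures, so these pairs do not stand for all genes. Leaving out single libraries gave 7428 to 10065 calls in all, the most without 3D replicate 2 and the fewest without 2D replicate 2. With the replicate number as a block, 8615 genes passed, of which 8354 were among the 8760 with the same sign; the pairing of numbers is not supported by the labels, and 3D replicate 1 correlated best with 2D replicate 3 (r = 0.226).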

Other observations

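Among superoxide and peroxide enzymes, 5 of 10 tested genes rose and 1 fell in CPM, against 4 higher and 4 lower of 8 on the TPM scale; 11 listed genes did not pass the filter on low counts. NOX1, an NADPH oxidase of epithelia, had 2, 3 and 2 counts in 2D and 331, 253 and 1516 in 3D, and CYBA, the membrane partner that NOX1 needs, stood at 29.6, 27.5 and 30.4 CPM and 159, 134 and 124 (2.25 ± 0.12). Chemokines and cytokines rose in 9 of 15 and fell in 3 (median 0.98), against 5 higher and 7 lower of 13 on the TPM scale (median -0.31), while 18 genes of the tables did not pass the filter. CXCL1, a neutrophil attractant, stood at 2.38, 1.58 and 1.89 CPM and 13.6, 14.7 and 11 (2.71 ± 0.20), and TNFSF10, the death ligand TRAIL, at 0.423, 0.357 and 0.162 CPM and 12.7, 18.4 and 11.7 (5.42 ± 0.31).

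Of 6 tested alveolar markers 2 rose and 3 fell, against 0 higher and 3 lower of 5 on the TPM scale. Among the falls was CAV1, the caveolin of flat type 1 cells, from 676 ± 21.9 to 123 ± 15.8 CPM (-2.46 ± 0.11). A list of syndecans, glypicans and other matrix receptors held 3 rises, CD44 and DDR1 given above among them, and 3 falls in 9 tested genes, near the shares of all genes. The falls include SDC4, a co-receptor of focal adhesions, at 57.8, 58.2 and 60.8 CPM and 21.7, 20.4 and 27.3 (-1.32 ± 0.12). Lysyl oxidases and collagen hydroxylases rose in 6 of 13 and fell in 3, beside rises in 32.9% and falls in 29.2% of all genes, against 0 higher and 6 lower of 11 on the TPM scale. The falls include P4HA3, a collagen prolyl hydroxylase subunit, from 32.3 ± 2.73 to 7.9 ± 1.3 CPM (-1.99 ± 0.14). Of 14 tested BCL2 family genes 5 rose and 7 fell, beside rises in 32.9% and falls in 29.2% of all genes. On the TPM scale 1 of 12 was higher and 9 lower. The falls include BOK, a death-promoting member, from 15.9 ± 0.97 to 5.41 ± 1.77 CPM (-1.46 ± 0.18). Of 22 tested fatty acid genes 6 rose and 7 fell, near the shares of all genes, against 0 higher and 12 lower of 20 on the TPM scale.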
